A study of Schizosaccharomyces pombe with 49 samples.

Results

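The subject is a set of 4 fission yeast (Schizosaccharomyces pombe) genes that decide between mitotic growth and meiosis: ste11 (SPBC32C12.02), mei2 (SPAC27D7.03c), mei3 (SPBC119.04) and pat1 (SPBC19C2.05). They were chosen by symbol and found by systematic ID, and all 4 were among the 7015 gene IDs present in every count table. Ste11 is an HMG-box transcription factor that activates the mating genes and mei2. Mei2 is the RNA-binding protein that switches cells into meiosis, and with the non-coding meiRNA (sme2) it inactivates Mmi1, a factor that sends meiotic mRNAs to degradation. Pat1 is the kinase that keeps both Ste11 and Mei2 inactive in growing cells, and Mei3 is the protein that inhibits Pat1 in diploid cells with both mating types. Nutrients act on the switch from above: the TORC1 kinase Tor2, like the cyclic AMP pathway, restrains Ste11 in rich medium.

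Total RNA was sequenced in 49 libraries, of which 46 had counts per gene and 2 had the authors' own comparison. Those 2 were of tor2-ts6 and of pir1Δ mat1Msmt0 cells in rich YEA medium at 30C. The remaining 1, a wild-type mat1Msmt0 library in YEA at 30C, was not analysed here. A meiotic time course held 31 libraries, all of diploids that carried pat1-as2, an allele whose kinase is blocked by the drug 1-NM-PP1. Of these, 10 were of red1Δ, 10 of pir1Δ and 11 of the otherwise wild-type strain. Red1 and Pir1 (listed as iss10) are partners in the nuclear RNA elimination complex MTREC. Cells of each strain were sampled as vegetative cells in YEA at 26C, after 4 h in nitrogen-free EMM-N medium, and at every hour to 8 h in 25 µM 1-NM-PP1. The wild-type strain had a second vegetative library, and the mating type of these diploids is not given in the labels. A set of 8 libraries came from h90 cells, which switch mating type, in YEA at 30C. These were tor2-ts6 (a temperature-sensitive allele of the TORC1 kinase gene) with ubi4Δ, cul4Δ or ddb1Δ, each with and without pir1Δ, then tor2-ts6 alone and wild type. A set of 4 came from h90 cells expressing GFP-Pir1-SD, GFP-Pir1-SA or GFP-Pir1 in minimal EMM medium at 18C, and GFP-Pir1 in YEA at 30C. A set of 3 came from mat1Msmt0 cells, which stay in the M mating type, at 29C: pir1Δ in EMM, pir1Δ in YEA and wild type in EMM. Outside the vegetative wild-type diploids each condition was 1 library. Nothing states that libraries came from separate cultures, so p-values measure only the spread between these libraries.

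Each library held 10157616 to 56454913 reads in genes, in the count used for its set. Counted on their own strand, the members drew between 3 reads (mei3 in pir1Δ mat1Msmt0 cells in YEA) and 120198 reads (mei2). On the gene's own strand, red1 stood at 0.546 to 1.92 CPM (a gene's reads as a share of all gene reads, on a scale common to all libraries) in the 10 red1Δ libraries and at 40.8 to 199.5 CPM in the others. The pir1 gene stood at 0.662 to 17.0 CPM in the 15 pir1Δ libraries and at 19.5 to 144.7 CPM in the others. The 17.0 CPM belonged to tor2-ts6 cul4Δ pir1Δ, against 62.8 CPM in tor2-ts6 cul4Δ. The tor2-ts6 pir1Δ libraries with ubi4Δ and ddb1Δ had 3.17 and 5.90 CPM. The source of the remaining pir1 reads was not tested, and that cul4Δ library enters the fits of Pir1 loss and of cul4Δ below. In the h90 set ubi4 stood at 41.2 and 47.5 CPM in its deletion against 168.2 to 394.6 CPM elsewhere, and ddb1 at 8.00 and 8.32 against 95.1 to 236.9 CPM. In the cul4Δ libraries cul4 was at 1.56 and 3.55 CPM in the count without strand, which leaves out reads shared with an overlapping gene, against 50.4 to 75.0 CPM in the other 6 h90 libraries. On its own strand alone cul4 kept 92.7 and 75.1 CPM in the cul4Δ libraries, against 49.0 to 73.9 CPM; the RefSeq annotation places SPNCRNA.909 over one end of cul4. Starved diploids differed beyond these genes. Genes of M cells summed to 2152 CPM in red1Δ, 1200 CPM in pir1Δ and 10930 CPM in wild type, and genes of P cells to 297.9, 444.9 and 5479 CPM. Genes of the meiotic divisions and spores summed to 3577, 23310 and 2960 CPM in the same order. The wild-type starved library was thus high in mating genes and the pir1Δ starved library in late meiotic genes, and the part of these differences in the values of the members was not tested. In the mat1Msmt0 cells, all in the M mating type, mei3 had 3 to 17 reads.

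Cells starved in EMM-N held more RNA of all 4 genes than vegetative cells in YEA. Loss of nitrogen and the change from rich to minimal medium cannot be told apart in this step. The test across all course libraries (edgeR's quasi-likelihood test with Benjamini-Hochberg adjustment, with terms for time and strain) called 39.7% of the 5687 genes tested between starved and vegetative cells, and all 4 members were among those higher. On the log2 scale mei3 rose by 4.28 ± 0.55 (SE, adjusted p = 1.67e-06) and mei2 by 4.24 ± 0.48 (adjusted p = 2.73e-07), while ste11 rose by 2.32 ± 0.42 (adjusted p = 0.000122) and pat1 by 1.16 ± 0.24 (adjusted p = 0.000391). For ste11 the size rested on 1 library: without wild-type starved cells the difference was 1.32 and still called, and without all wild-type libraries it was also 1.32, with an adjusted p of 0.0562. In bulk RNA, more cells that express a gene and more RNA of it per cell cannot be told apart.

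The levels are given as CPM scaled within the course by TMM (a scaling on genes whose level is taken as steady) and counted on both strands, and they compare libraries, not genes. In red1Δ, ste11 was at 92.5 CPM in vegetative and 399 CPM in starved cells, and at 234, 226, 211, 147, 119, 121, 114 and 109 CPM at 1 to 8 h of inhibitor. In pir1Δ it was at 126 and 189 CPM, and then at 116, 93.8, 89.0, 78.4, 82.1, 103, 153 and 172 CPM. In wild type it was at 91.4 and 67.9 CPM in the vegetative pair, at 840 CPM in starved cells, and at 233, 97.5, 73.2, 54.8, 64.5, 74.4, 95.7 and 125 CPM. The starved library was thus the highest of each strain for ste11, and from 2 to 6 h wild type and pir1Δ were below 126 CPM while red1Δ stayed above every vegetative library until 4 h.

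For mei2, the gene that Ste11 activates, red1Δ cells held 55.3 CPM when vegetative, 1922 CPM when starved, and 1030, 1641, 1890, 1460, 1172, 943, 705 and 598 CPM at 1 to 8 h. The pir1Δ cells held 177 and 1980 CPM, and then 1611, 1081, 795, 566, 435, 390, 415 and 438 CPM. Wild type held 106 and 95.5 CPM in the vegetative pair, 2645 CPM when starved, and then 1717, 2114, 1452, 801, 343, 252, 277 and 409 CPM. No starved or induced library of any strain came down to the vegetative levels of mei2.

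**Figure D1:**
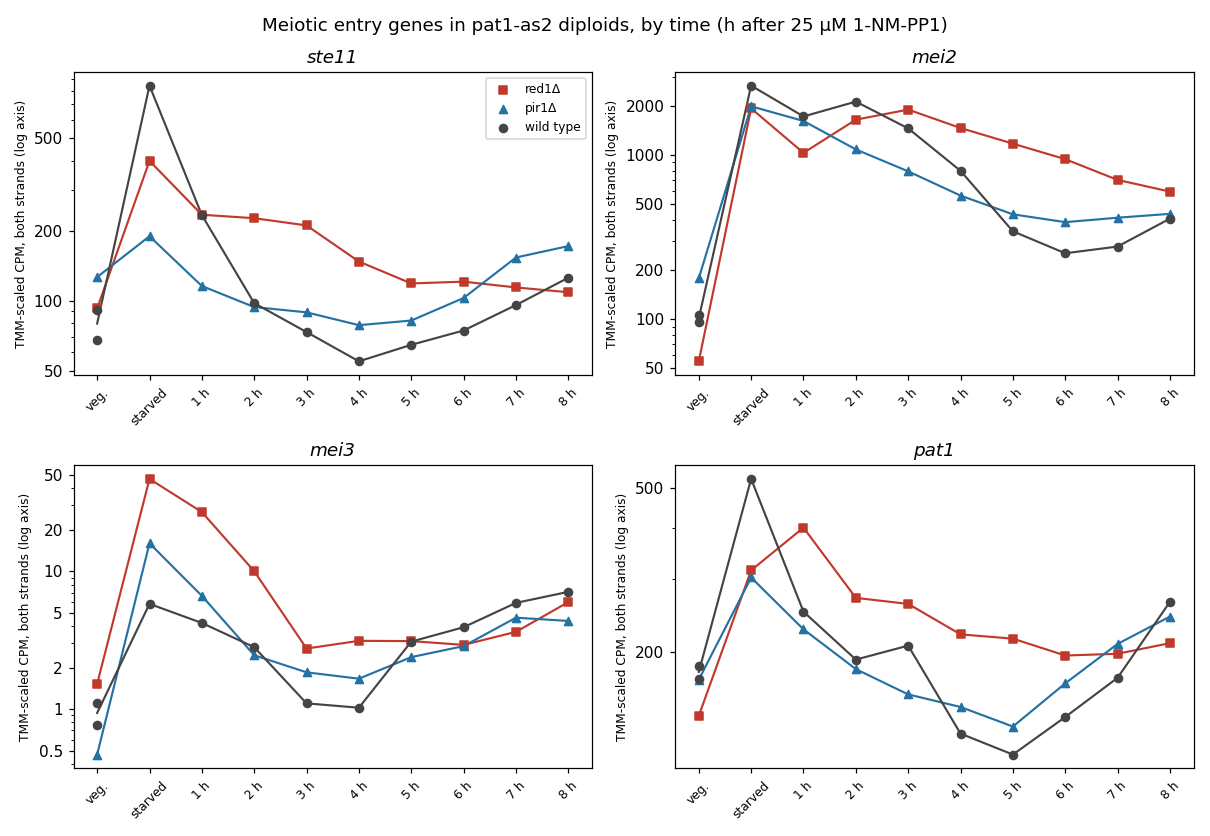
Level of each of the 4 genes in the pat1-as2 diploid course, in TMM-scaled CPM on a log axis (reads of both strands), against stage, from vegetative and starved cells to 8 h of 1-NM-PP1. Each point is 1 library, in red for red1Δ, blue for pir1Δ and grey for wild type, and the starved libraries stand above the vegetative ones for every gene and strain; ste11 and pat1 peak in starved wild-type cells, whereas mei3 is highest in starved red1Δ cells, at 46.7 CPM.

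For mei3, the inhibitor of the Pat1 kinase, the few reads make single values coarse. The red1Δ cells had 1.52 CPM when vegetative, 46.7 CPM when starved, and 26.8, 10, 2.75, 3.13, 3.11, 2.92, 3.63 and 5.97 CPM at 1 to 8 h. The pir1Δ cells had 0.468 and 15.9 CPM, and then 6.63, 2.46, 1.85, 1.66, 2.38, 2.86, 4.60 and 4.36 CPM. Wild type had 1.11 and 0.767 CPM in the vegetative pair, 5.80 CPM when starved, and then 4.22, 2.81, 1.10, 1.02, 3.09, 3.93, 5.89 and 7.09 CPM. Among the starved libraries red1Δ had the most mei3 and wild type the least, whereas ste11 was highest in wild type.

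For pat1, which here encodes the as2 kinase in every library, red1Δ cells had 140 CPM when vegetative, 315 CPM when starved, and 400, 271, 262, 221, 216, 196, 198 and 210 CPM at 1 to 8 h. The pir1Δ cells had 172 and 303 CPM, and then 227, 182, 158, 148, 132, 168, 210 and 244 CPM. Wild type had 186 and 173 CPM in the vegetative pair, 525 CPM when starved, and then 251, 192, 208, 127, 113, 140, 174 and 265 CPM. The gene varied least of the 4, with a highest level 2.85 times the lowest in red1Δ, 2.29 times in pir1Δ and 4.63 times in wild type, against 34.8, 11.2 and 27.7 times for mei2.

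After the inhibitor was added, ste11, mei3 and pat1 fell in the first step and mei2 in the second, in the fit that takes the strains together. Single strains departed from this. In red1Δ pat1 was at 315 CPM when starved and at 400, 271 and 262 CPM at 1 to 3 h. In pir1Δ mei2 went from 1980 CPM to 1611, 1081 and 795 CPM in the first step. Between 1 to 3 h and starvation 10.3% of genes were called. Of the members ste11 fell by 1.78 ± 0.34 (SE, adjusted p = 0.000984), mei3 by 2.14 ± 0.39 (adjusted p = 0.000683) and pat1 by 0.73 ± 0.20 (adjusted p = 0.0197). The difference of mei2 was -0.59 ± 0.38 (adjusted p = 0.325). Single libraries carried these calls: without wild-type starved cells ste11 differed by -0.80 (adjusted p = 0.195) and pat1 by -0.36 (adjusted p = 0.462), and without red1Δ starved cells mei3 differed by -1.60 (adjusted p = 0.0525). On the gene's own strand alone pat1 differed by -0.73 with an adjusted p of 0.0532. Between 4 to 6 h and 1 to 3 h 42.8% of genes were called. Here mei2 fell by 1.21 ± 0.28 (SE, adjusted p = 0.00181) and pat1 by 0.53 ± 0.15 (adjusted p = 0.00606); without all wild-type libraries these were -0.78 (adjusted p = 0.169) and -0.42 (adjusted p = 0.109). In the same step ste11 fell by 0.65 ± 0.26 (adjusted p = 0.0436), a call lost in 17 of 34 refits with libraries left out (-0.69 to -0.51, adjusted p from 0.0505 to 0.228). The difference of mei3 was -0.72 ± 0.32 (adjusted p = 0.0713), or -0.98 with an adjusted p of 0.0203 on its own strand. Between 7 and 8 h and 4 to 6 h 4.2% of genes were called and none of the members. There mei3 had a difference of 1.10 ± 0.35 (SE, adjusted p = 0.0562) and pat1 of 0.45 ± 0.16 (adjusted p = 0.0704).

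Of the genes linked to the switch, those activated by Ste11 and those that act after Mei2 rose with starvation. Of 21 regulators upstream of ste11, 10 rose and 1 fell in starved cells, not far from the 39.7% called over all genes. Those that rose include rst2, a zinc-finger activator of ste11 (log2 1.27), rhb1, the GTPase that activates TORC1 (1.19), and atf1, a stress transcription factor (1.41). All 13 of the 15 genes activated by Ste11 that could be tested rose, with a median log2 change of 2.81 against 0.11 over all genes. Of the 15, 8 also belong to the lists of M-cell and P-cell genes given above for the starved libraries. The Ste11-activated genes include mam2, a pheromone receptor (4.02), mfm1, an M-factor pheromone gene (5.52), and fus1, a formin for cell fusion (2.96). Of 9 partners of Mei2 and genes of RNA elimination, 2 rose and 2 fell, again near the share over all genes, with sme2, which makes meiRNA, at 4.44 and mmi1 at -1.10. All 5 tested of 6 genes that act after Mei2 rose as well, including the meiotic cohesin gene rec8 (3.11), the meiotic cyclin gene crs1 (2.92) and spo5 (6.14), an RNA-binding protein of the second division. At 1 to 3 h, where 10.3% of all genes were called, 12 of the 13 Ste11-activated genes fell from the starved level (mam2 by 3.08, fus1 by 2.03), none of those after Mei2 was called, and 2 of the regulators fell, pcr1 by 0.62 and pka1 by 0.96. At 4 to 6 h, with 42.8% of all genes called, 4 of the 5 genes after Mei2 fell, rec8 by 2.24, crs1 by 1.93 and spo5 by 1.91, in the step in which mei2 fell. In that step 1 Ste11-activated gene fell, and at 7 and 8 h no gene of these lists was called.

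The strains were then compared. Over the whole course 32.3% of genes were called between red1Δ and wild type. Of the members mei3 was higher in red1Δ, by 0.97 ± 0.30 on the log2 scale (SE, adjusted p = 0.0173, edgeR's quasi-likelihood test), and by 1.25 with an adjusted p of 0.00474 on its own strand. Without all pir1Δ libraries, which enter the fit, the call was lost (0.97, adjusted p = 0.0697). The other differences were 0.50 ± 0.24 for ste11, 0.51 ± 0.27 for mei2 and 0.25 ± 0.14 for pat1 (adjusted p = 0.125, 0.149 and 0.178). Without wild-type starved cells ste11 differed by 0.74 (adjusted p = 0.00733) and pat1 by 0.34 (adjusted p = 0.0454), and without red1Δ vegetative cells mei2 differed by 0.67 (adjusted p = 0.0391). Between pir1Δ and wild type 41.5% of genes were called on both strands and no member. The differences were 0.05 for ste11 (95% interval -0.46 to 0.56), -0.03 for mei2 (-0.57 to 0.50), -0.05 for mei3 (-0.69 to 0.58) and -0.08 for pat1 (-0.36 to 0.21). On the gene's own strand, where the same test called 48.3% of genes, they were 0.40 for ste11, 0.26 for mei2 and 0.35 for mei3. There pat1 was called, at 0.49 (adjusted p = 0.0178). The share of reads on the opposite strand differed between most libraries of these strains, and its part in the differences was not tested. The near-zero averages on both strands held opposite parts: ste11 in pir1Δ was 2.15 lower on the log2 scale than in wild type when starved, and higher at 7 of the 10 times.

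Whether the strain differences changed along the course was tested by an interaction of strain and phase, which 16.9% of 5721 genes passed. This test takes red1Δ and pir1Δ together and does not say which of them changed. Of the members pat1 (adjusted p = 0.0144) and mei2 (adjusted p = 0.0339) passed, while ste11 (adjusted p = 0.153) and mei3 (adjusted p = 0.127) did not. The call for mei2 was lost on leaving out any 1 of 14 libraries, with an adjusted p of up to 0.0941 without the red1Δ vegetative library, and ste11 passed without pir1Δ vegetative cells (adjusted p = 0.0144) or without pir1Δ starved cells (adjusted p = 0.0356).

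In red1Δ, mei3 was called at 1 to 3 h, mei2 at 4 to 6 h and pat1 in both of these phases. In vegetative and starved cells 8.29% of genes were called and no member, with mei3 at 1.66 ± 0.55 (SE, adjusted p = 0.0730) and pat1 at -0.50 ± 0.18 (adjusted p = 0.0953). At 1 to 3 h 13% were called; mei3 was higher by 1.99 ± 0.45 (adjusted p = 0.00717) and pat1 by 0.51 ± 0.16 (adjusted p = 0.0429). At 4 to 6 h 27.1% were called; mei2 was higher by 1.49 ± 0.34 (adjusted p = 0.00373) and pat1 by 0.74 ± 0.16 (adjusted p = 0.00240), and ste11 differed by 1.01 ± 0.37 (adjusted p = 0.0550). These follow from the values above: at 5 h red1Δ held 1172 CPM of mei2 against 343 CPM in wild type, and at 1 h 26.8 CPM of mei3 against 4.22 CPM. At 7 and 8 h 24.5% were called and no member, with mei2 at 0.94 ± 0.41 (adjusted p = 0.0964). The mei3 call at 1 to 3 h was lost without the wild-type 1 h library (1.73, adjusted p = 0.0557) or the red1Δ 1 h library (1.67, adjusted p = 0.0613). The pat1 call at 1 to 3 h was lost in 17 of the refits (0.43 to 0.60, adjusted p from 0.05004 to 0.192).

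In pir1Δ no member was called in any phase on both strands. The share of all genes called was 3.85% in vegetative and starved cells, 43.1% at 1 to 3 h, 25.3% at 4 to 6 h and 13.9% at 7 and 8 h. The member furthest from 0 was mei2 at 1 to 3 h, with -0.59 ± 0.33 (SE, adjusted p = 0.159), which passed without the pir1Δ 1 h library (-1.04, adjusted p = 0.0363). Likewise ste11 in vegetative and starved cells, at -0.43 ± 0.43 (adjusted p = 0.568), passed without the pir1Δ vegetative library (-1.81, adjusted p = 0.0339), which left only the starved cells of that strain.

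**Figure D2:**
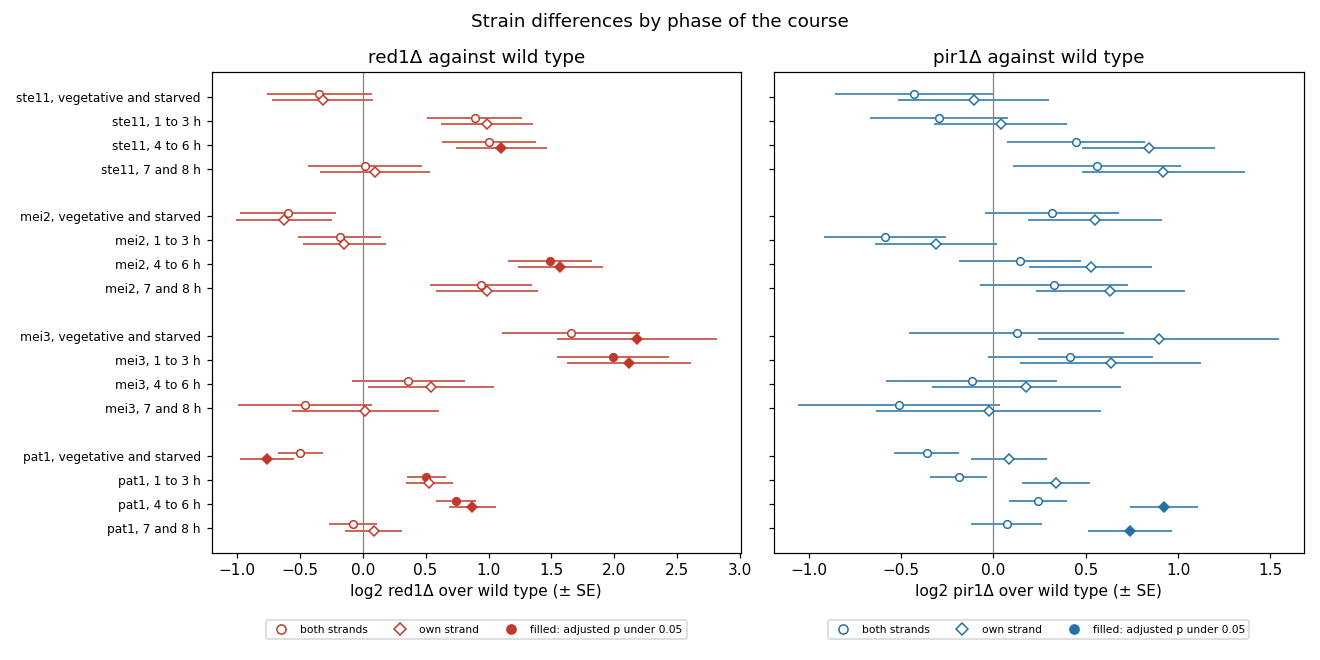
Log2 difference of red1Δ (left) and pir1Δ (right) from wild type for each gene in each phase of the course, with bars of 1 standard error; circles use reads of both strands and diamonds reads of the gene's own strand, filled where the adjusted p was under 0.05. Among the circles of red1Δ mei3 lies furthest right at 1 to 3 h (1.99) and mei2 at 4 to 6 h (1.49). Among its diamonds mei3 lies furthest right in vegetative and starved cells (2.18). In pir1Δ only own-strand values of pat1 are filled.

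Among the linked lists, with 32.3% of all genes called, 4 of the 5 tested genes that act after Mei2 were higher in red1Δ over the course, including rec8 (log2 2.08) and ssm4, a dynactin gene (1.10). The list is named for known roles, and the part of Mei2 in these differences was not tested. On Pir1 loss in tor2-ts6 h90 cells the genes of this list differed by 1.70 to 2.80, none of them called, and mei2 by -0.20. Of the Mei2 partners 4 were higher and 2 lower, with sme2 at 3.15; the lower ones were erh1 (-0.32) and red1, the gene deleted in this strain. Of the 13 Ste11-activated genes 1 was higher and 2 lower, such as map2, a P-factor pheromone gene (-1.80), and of the 21 regulators 1 was higher and 3 lower, with rhb1 at -0.84. In pir1Δ 8 regulators were higher and 1 lower, close to the 41.5% called over all genes, with sty1, the stress kinase gene, at 1.45 and rhb1 at -1.05. On the own strand 13 of the 21 were higher and 1 lower, with 48.3% of all genes called in that count. On both strands 2 of the genes after Mei2 were higher in pir1Δ, namely crs1 (1.04) and the transcription factor gene mei4 (1.48). Of the Ste11-activated genes only 1 was called there, map2, at -2.46.

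The course was counted without regard to strand, so reads on the opposite strand enter its values. The share of a gene's reads that lay on the other strand had a median over genes of 11.9 to 15.5% in 20 course libraries (red1Δ and all of wild type but vegetative 2) and of 1.01 to 3.77% in the other 11 (pir1Δ and wild-type vegetative 2). For pat1 the share was 31.6 to 52.8% in those 20, 5.29 to 13.9% in those 11 and 0.0175 to 3.18% in the 15 libraries outside the course. Thus pat1 was above the median gene in every course library. The course libraries alone carry the pat1-as2 allele, so its part in this share cannot be told apart from that of the course. The shares of ste11 were 15.9 to 27.2%, 0.314 to 2.0% and 0.013 to 2.54% over the same 3 groups, and those of mei2 16.9 to 22.1%, 0.106 to 1.90% and 0.0253 to 4.55%. Those of mei3, with few reads, spread from 10.7 to 70%, 0.730 to 37.9% and 0.41 to 61.4%. The RefSeq annotation of assembly ASM294v3 places the non-coding gene SPNCRNA.5298 antisense to pat1 and SPNCRNA.4843 over part of mei3; neither was counted as a gene of its own in these tables.

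**Figure D3:**
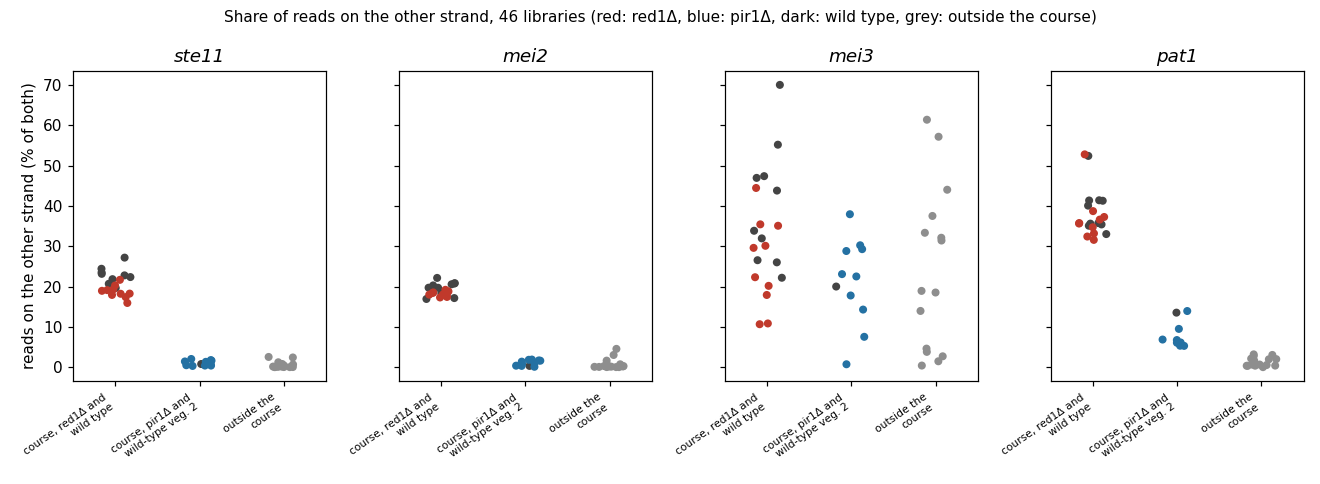
Share of each gene's reads that lay on the opposite strand (percent), 1 point per library, for pir1Δ, red1Δ and wild-type course libraries and for the other sets. For pat1 the course libraries of red1Δ and wild type reach 52.8%, the pir1Δ libraries stay at or under 13.9% and the libraries outside the course at or under 3.18%; the wide range of mei3 outside the course comes with as few as 3 reads on its own strand.

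Counted on its own strand alone, pat1 was at 55.0 CPM in vegetative and 164 CPM in starved red1Δ cells and at 204, 143, 148, 127, 117, 105, 108 and 121 CPM at 1 to 8 h. In pir1Δ it was at 122 and 236 CPM, and then at 170, 138, 123, 119, 108, 136, 168 and 192 CPM. In wild type it was at 70.9 CPM in vegetative 1 and 124 CPM in vegetative 2, at 277 CPM when starved, and then at 130, 100, 109, 65.7, 57.5, 68.3, 87.1 and 131 CPM. In that count pir1Δ exceeded wild type by 0.49 ± 0.17 over the course (log2, SE, adjusted p = 0.0178), by 0.92 at 4 to 6 h (adjusted p = 0.00193) and by 0.74 at 7 and 8 h (adjusted p = 0.0356). On both strands these differences were -0.08, 0.24 and 0.07. The pir1Δ vegetative value of 122 CPM stood beside 124 CPM in wild-type vegetative 2, the wild-type library with a low opposite-strand share. The strain and the strand share cannot be told apart at the other times. In red1Δ, whose strand share was like that of wild type, own-strand counts gave pat1 at -0.76 in vegetative and starved cells (adjusted p = 0.0355) and mei3 at 2.18 (adjusted p = 0.0446), and ste11 at 1.10 at 4 to 6 h (adjusted p = 0.0345).

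In growing h90 cells all 4 genes were higher with the tor2-ts6 allele than in wild type. By edgeR's quasi-likelihood test over the 8 libraries, with terms for background and for pir1Δ, 52.5% of 6404 genes were called. The level of mei2 rose by 7.58 ± 0.39 on the log2 scale (SE, adjusted p = 0.00160), ste11 by 4.89 ± 0.31 (adjusted p = 0.00160), mei3 by 4.55 ± 0.75 (adjusted p = 0.00644) and pat1 by 3.87 ± 0.28 (adjusted p = 0.00163). These are own-strand counts, with 2 residual degrees of freedom, and tor2-ts6 alone and wild type were 1 library each. For ste11 the scaled levels were 1091 CPM in tor2-ts6 and 36.8 CPM in wild type. For mei2 they were 2697 and 14.1 CPM, for mei3 11.5 and 0.480 CPM, and for pat1 488 and 33.3 CPM in the same order.

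Loss of Ubi4 (polyubiquitin), or of the Cul4 or Ddb1 subunit of a ubiquitin ligase, came with lower levels than tor2-ts6 alone. For ste11 the levels were 659 and 524 CPM in tor2-ts6 ubi4Δ with and without pir1Δ, 270 and 294 CPM in cul4Δ, 440 and 557 CPM in ddb1Δ, and 1091 CPM in tor2-ts6. For mei2 they were 1213 and 1075 CPM, 312 and 351 CPM, 636 and 959 CPM, and 2697 CPM. Every deletion library of the set lay below tor2-ts6 and above wild type for both genes, with the cul4Δ libraries lowest. For mei3 the levels were 1.88 and 3.18 CPM in ubi4Δ, 8.02 and 4.67 CPM in cul4Δ, 4.12 and 4.98 CPM in ddb1Δ and 11.5 CPM in tor2-ts6. For pat1 they were 143 and 130 CPM, 139 and 104 CPM, 180 and 218 CPM, and 488 CPM. Here mei3 was lowest in ubi4Δ, not in cul4Δ, and the deletion libraries held 104 to 218 CPM of pat1.

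**Figure D4:**
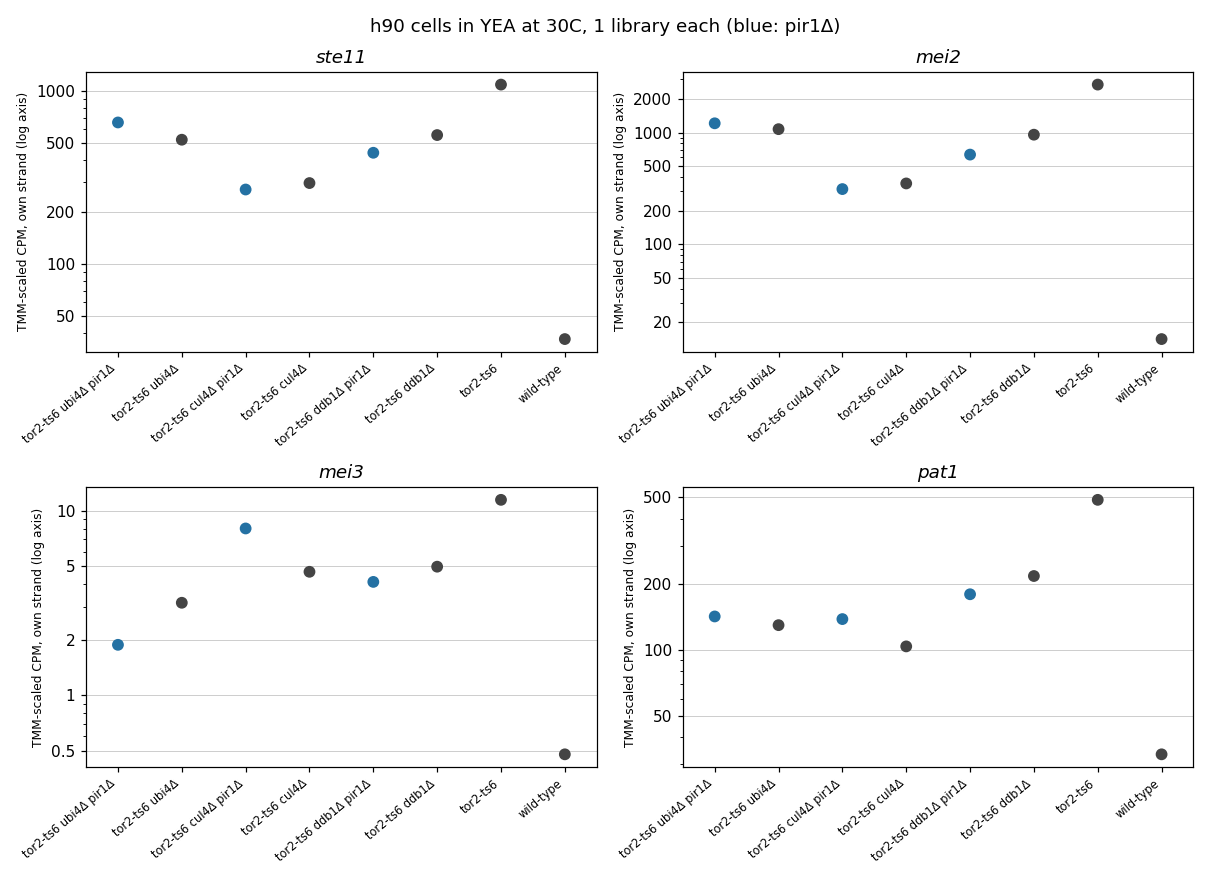
Level of each gene in the 8 h90 libraries (YEA, 30C) as TMM-scaled own-strand CPM on a log axis; each point is 1 library, blue where pir1 is deleted. For every gene tor2-ts6 is the highest and wild type the lowest, and the cul4Δ libraries are lowest of the tor2-ts6 strains for ste11 and mei2 (270 to 351 CPM).

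In ubi4Δ 14.4% of genes were called against tor2-ts6. Of the members, pat1 fell by 1.89 ± 0.22 (SE, adjusted p = 0.0183) and mei3 by 2.18 ± 0.48 (adjusted p = 0.0462), with ste11 at -0.86 ± 0.24 (adjusted p = 0.0685) and mei2 at -1.13 ± 0.27 (adjusted p = 0.0514). In cul4Δ 18.8% were called. There mei2 fell by 2.93 ± 0.26 (adjusted p = 0.0104), ste11 by 1.93 ± 0.23 (adjusted p = 0.0137) and pat1 by 2.05 ± 0.22 (adjusted p = 0.0122), with mei3 at -0.85 ± 0.47 (adjusted p = 0.233). In ddb1Δ 2.34% were called. There mei2 fell by 1.68 ± 0.26 (adjusted p = 0.0499), and ste11 (-1.11), mei3 (-1.34) and pat1 (-1.33) had adjusted p of 0.0830, 0.190 and 0.0541. Leaving out 1 ubi4Δ or 1 ddb1Δ library ended those of mei3 (-2.86 to -1.85, adjusted p from 0.0961 to 0.144) and pat1 (-1.98 to -1.84, adjusted p from 0.0556 to 0.119) in ubi4Δ. Leaving out any of 5 libraries ended that of mei2 in ddb1Δ (adjusted p from 0.0516 to 0.221). Without the tor2-ts6 ddb1Δ library the fall of ste11 in cul4Δ had an adjusted p of 0.0525 (-1.999).

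The deletions were also set against each other. Between cul4Δ and ubi4Δ 51.5% of genes were called. The cul4Δ libraries held less mei2 (-1.80 ± 0.21, SE, adjusted p = 0.00415) and less ste11 (-1.07 ± 0.19, adjusted p = 0.00938) but more mei3 (1.34 ± 0.41, adjusted p = 0.0455), while pat1 differed by -0.17 ± 0.17 (adjusted p = 0.447). The call of mei3 was lost on leaving out 5 of the 8 libraries in turn (0.69 to 1.87, adjusted p from 0.0604 to 0.250), and that of ste11 without tor2-ts6 ubi4Δ pir1Δ (-0.78, adjusted p = 0.0731). Between cul4Δ and ddb1Δ 0.625% were called and no member. The differences were -0.82 for ste11 (95% interval -1.61 to -0.02), -1.25 for mei2 (-2.16 to -0.34), 0.49 for mei3 (-1.13 to 2.11) and -0.72 for pat1 (-1.48 to 0.03).

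Of the genes activated by Ste11, all 15 rose in tor2-ts6 against wild type, with a median log2 change of 5.50, among them spk1, the pheromone MAP kinase gene (6.90), and ste4, a gene of the pheromone cascade (2.98). In cul4Δ 14 of the 15 fell from tor2-ts6 (18.8% of all genes called), with gpa1 at -1.75, ste4 at -1.59 and the receptor gene map3 at -3.62. In ubi4Δ 4 of them fell, and in ddb1Δ 5 (14.4% and 2.34% of all genes called in the same order). Of the 21 regulators 11 rose and 2 fell in tor2-ts6, near the 52.5% called over all genes, with git3, the glucose receptor gene, at 1.84 and zfs1 at 1.37. Of the 6 genes that act after Mei2, 5 rose in tor2-ts6, with spo5 at 6.64 and crs1 at 2.95.

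Loss of Pir1 in growing cells went with no called change in the members in the fits of the counted libraries. In the tor2-ts6 backgrounds 0.375% of genes were called. The members differed by -0.04 for ste11 (95% interval -0.69 to 0.60), -0.20 for mei2 (-0.93 to 0.54), 0.01 for mei3 (-1.42 to 1.44) and 0.09 for pat1 (-0.53 to 0.70). Over 11 vegetative libraries of 5 backgrounds, in one fit with the background as a term, 0.419% were called. The differences were 0.11 for ste11 (-0.30 to 0.52), 0.09 for mei2 (-0.39 to 0.56), -0.30 for mei3 (-1.02 to 0.41) and -0.02 for pat1 (-0.25 to 0.22). The backgrounds did not point one way. For mei2 the log2 ratio of pir1Δ to its partner was 0.17 in ubi4Δ, -0.17 in cul4Δ, -0.59 in ddb1Δ, 0.07 in mat1Msmt0 cells in EMM and 0.81 in vegetative diploids. For ste11 it was 0.33, -0.12, -0.34, -0.02 and 0.66 in the same order.

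Medium and temperature were compared between single libraries, with no replicate check, and a gene was counted where it differed by at least 2-fold with at least 50 reads. GFP-Pir1 cells in EMM at 18C had 510 CPM of ste11, 946 CPM of mei2, 14.2 CPM of mei3 and 173 CPM of pat1, against 429, 155, 0.587 and 63.4 CPM in YEA at 30C. Of all genes 20.1% passed the rule. Of the members mei2 (log2 2.61), mei3 (4.46, from 506 and 14 reads) and pat1 (1.45) did, while ste11 was at 0.25. The pir1Δ mat1Msmt0 cells at 29C had 237 CPM of ste11, 340 CPM of mei2 and 56.1 CPM of pat1 in EMM, against 18.2, 5.77 and 25.9 CPM in YEA. There 7.18% of genes passed, and ste11 (3.70), mei2 (5.86) and pat1 (1.12) were among them, while mei3 had 14 reads in EMM and 3 in YEA, too few for the rule. Thus mei2 and pat1 passed the rule upward in minimal medium in both pairs, and ste11 in the second pair alone. The GFP-Pir1 pair differs in temperature as well as medium, and the pairs also differ in strain.

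**Figure D5:**
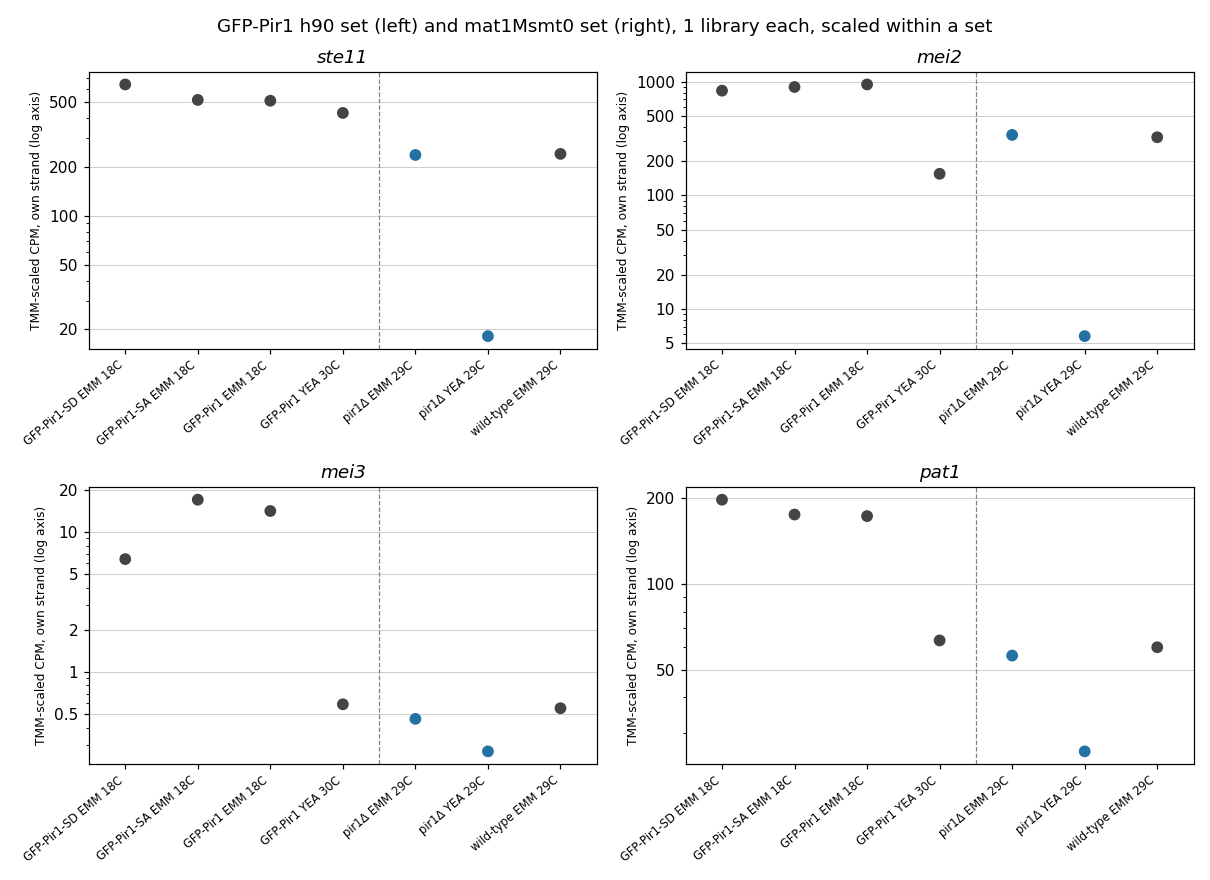
Level of each gene in the GFP-Pir1 h90 libraries and the mat1Msmt0 libraries, as TMM-scaled own-strand CPM on a log axis; each point is 1 library, and the sets were scaled separately. In YEA mei2 stands at 155 CPM in GFP-Pir1 cells and 5.77 CPM in pir1Δ mat1Msmt0 cells, below every EMM library of its set.

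The GFP-Pir1-SD and GFP-Pir1-SA libraries lay within 2-fold of GFP-Pir1 for 7 of the 8 values. GFP-Pir1-SD cells had 643 CPM of ste11, 834 CPM of mei2, 6.41 CPM of mei3 and 198 CPM of pat1, and GFP-Pir1-SA cells had 516, 898, 17.0 and 176 CPM, against 510, 946, 14.2 and 173 CPM in GFP-Pir1 cells. Under the size rule 3.97% of genes passed for SD, of the members mei3 alone (log2 -1.14, from 207 and 506 reads), and 0.809% for SA, with no member. In mat1Msmt0 cells in EMM, pir1Δ against wild type passed for 1.58% of genes and no member, with 237 and 240 CPM of ste11, 340 and 325 CPM of mei2 and 56.1 and 60.02 CPM of pat1.

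The authors' deposited tables cover mat1Msmt0 cells in YEA at 30C, each as a log2 change over a library their headers do not name. The authors' deposited table for tor2-ts6 lists 3.97 for ste11, 6.25 for mei2, 2.17 for mei3 (q = 0.0027) and 3.68 for pat1. The authors' deposited table for pir1Δ lists 0.829 for ste11 (q = 9.52e-18), 0.641 for pat1 (q = 1.69e-10), -0.0295 for mei2 (q = 0.863) and 0.856 for mei3 (q = 0.372). By those q-values ste11 and pat1 were higher in pir1Δ in that table. No replicate stands behind these values, so the q-values compare libraries, not strains.

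Over the 31 course libraries the 4 genes did not share one profile. The log levels of ste11 and pat1 had a Pearson r of 0.90, and the other pairs had r of 0.50 to 0.65, as a description of libraries that share strains, hours and strand counting. The genes most like ste11 were spk1 (r = 0.91), pat1 (0.90) and the transcription factor gene pho7 (0.89), then ste4 (0.86) and ubp11 (0.85). Most like mei2 were pib1 (0.93), mug20 (0.92) and gcd1 (0.92), then rst2 (0.92) and mug42 (0.91). Most like mei3 were str3 (0.78), fip1 (0.78) and btb1 (0.76), then shu1 (0.74) and spx2 (0.73). For pat1 they were ste11 (0.90), ubp11 (0.87) and spk1 (0.85), then rng2 (0.82) and atg1 (0.82). The ubiquitin protease gene ubp11 is also the neighbour of pat1 in the annotation.

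Neighbouring genes were looked at after their values were seen, on their own strand. The gene omt3, next to mei2, rose by 5.10 ± 0.66 in starved cells (SE, adjusted p = 1.81e-06) and was higher in red1Δ by 2.61 ± 0.37 over the course (adjusted p = 1.83e-05, edgeR's quasi-likelihood test). In red1Δ it stayed between 710.4 and 1662 CPM from starvation to 8 h, against 1914 CPM in starved and 55.8 to 579.1 CPM in later wild-type cells. In tor2-ts6 h90 cells it rose by 9.0 ± 0.85 (adjusted p = 0.00186). Beside pat1, ubp11 rose by 2.09 ± 0.35 in starved cells (adjusted p = 4.67e-05), fell by 1.06 at 1 to 3 h (adjusted p = 0.0182) and by 0.93 at 4 to 6 h (adjusted p = 0.00182). Beside ste11, rse1 rose by 1.28 ± 0.21 in starved cells (adjusted p = 4.92e-05) and differed by 0.06 at 1 to 3 h (adjusted p = 0.873), when ste11 fell. Among the non-coding neighbours, SPNCRNA.993 rose by 2.99 ± 0.48 in starved cells (adjusted p = 3.19e-05) and fell by 1.69 at 1 to 3 h (adjusted p = 0.00419). The gene SPNCRNA.324 was called in neither step, at 0.56 ± 0.60 (adjusted p = 0.480) and -0.37 (adjusted p = 0.666).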

How the data were processed

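RNA-seq of 46 libraries was used as counts per gene that the authors deposited, made with Trimmomatic and STAR per the submitters' processing notes. The sources used here name no genome build. A set was read from the strand column with the larger total where that held at least 4 times the other strand column in every library. The course fell short of this, with a lowest ratio of 2.19, and was read from the column without strand. Its differing opposite-strand shares therefore enter its values. The other sets were read from the strand-specific column. The authors' deposited log2 fold changes and q-values for 2 further libraries come as a finished comparison. Both hold columns of values that match no sample by name, 4 in all, which were left out. Of 7015 gene IDs 97.8% matched RefSeq names (ASM294v3), which gave names and neighbours only. Reads assigned to no single gene (unmapped 0.252 to 3.90%, multimapping 2.98 to 14.7%, no feature 0.691 to 1.91%, ambiguous 13.2 to 30.4%) stayed out of library sizes, and precision follows from 10157616 to 56454913 gene reads.

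Counts were scaled by TMM and tested in edgeR 4.0.16 (quasi-likelihood, R 4.3.3) after filterByExpr, with Benjamini-Hochberg adjustment over all genes tested and a threshold of 0.05. The course fit had time and strain (or time and strain within phase) as terms, and h90 and vegetative fits had background and pir1Δ. Single pairs used log2 ratios with a prior count of 2 and a size rule of 2-fold with at least 50 reads. The scripts were tested on simulated counts. Alternatives were DESeq2 1.42.0, library totals, no filter, the other count column and leaving out libraries or strains. Genes named beside the members are the first 3 called of each list by p, the 5 with the closest profile, and neighbours chosen after their values were seen. The members and lists were chosen with earlier results of these data known.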

Additional observations from a re-analysis of the deposited data

Results flagged for a closer look

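The interaction of strain and phase, 1 test over red1Δ and pir1Δ together, passed for pat1 (adjusted p 0.01443, edgeR's quasi-likelihood test) and for mei2 (adjusted p 0.03388). The test does not say which strain changed, and in pir1Δ no member was called in any phase on both strands. The call for mei2 was lost on leaving out single libraries, as given above. For mei2 red1Δ differed from wild type by -0.59 in vegetative and starved cells and by 1.49 at 4 to 6 h, and for pat1 by -0.50 and 0.74 in the same phases.

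Reads on the strand opposite to pat1, which the comparisons outside the course do not use, made up at least 5.29% of its reads in the pir1Δ course libraries and wild-type vegetative 2, and 31.6 to 52.8% in the other course libraries, against at most 3.18% in the 15 libraries outside the course. Only the course libraries were labelled as pat1-as2 diploids. The altered pat1 allele and the ploidy thus cannot be told apart from other differences between the course and the other sets. The part of library preparation in this share was not tested. In the same groups of libraries the median gene had 1.01 to 3.77%, 11.9 to 15.5% and 0.893 to 7.76% of its reads on the opposite strand.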

How the results depend on the processing

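The 4 genes kept their direction and their side of the threshold between starved and vegetative cells and between tor2-ts6 and wild type under DESeq2, library totals, no low-count filter and the other count column. Over the results that answer a comparison, 358 values under such settings matched the reported call and direction or count, 18 newly passed the threshold, 2 lost it, 10 changed sign and 17 counts moved by over 1.5 times; the cause was not tested. Scaling by library totals in place of TMM shifted the median of all genes, by 0.44 in starved against vegetative cells, 0.35 in red1Δ and 0.38 in tor2-ts6 against wild type, and 91.2% instead of 44% of the genes called in red1Δ were then higher. Libraries were matched by hour or by background through terms in the fits, and no separate paired analysis was run. The prior count of 0.5 for single pairs changed no call. Depth limits mei3 most, and the 1-library conditions have no check of their own.

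With the other count column (own strand in the course, both strands elsewhere), pat1 at 1 to 3 h against starved was at -0.73 and mei3 at 4 to 6 h at -0.98. For pir1Δ over the course that column gave 0.26 for mei2, 0.35 for mei3 and 0.49 for pat1. By phase it gave 0.0845 for pat1 in vegetative and starved cells, 0.0385 for ste11 and 0.34 for pat1 at 1 to 3 h, and 0.18 for mei3 at 4 to 6 h. For red1Δ at 7 and 8 h it gave 0.0206 for mei3 and 0.0867 for pat1. It gave pat1 0.0891 on Pir1 loss in vegetative cells (0.0870 with the strand column in all libraries, a setting chosen after seeing the data) and mei2 -1.68 in ddb1Δ. The genes called were then 109 at 7 and 8 h, 763 for cul4Δ and 83 for ddb1Δ against tor2-ts6, and 152 passed the size rule for GFP-Pir1-SD counted without strand.

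With library totals, mei3 at 4 to 6 h against 1 to 3 h was at -1.01, red1Δ over the course differed by 0.85 for ste11, 0.87 for mei2 and 0.61 for pat1, and pir1Δ by -0.0980 for ste11. By phase red1Δ was at 0.0461 for mei2 at 1 to 3 h and at 0.0800 for mei3 and 0.45 for pat1 at 7 and 8 h, and pir1Δ at -0.0713 for mei3 in vegetative and starved cells. In h90 cells this gave -0.0207 for mei3 on Pir1 loss, -1.28 for pat1 in ddb1Δ, 0.000394 for pat1 between cul4Δ and ubi4Δ, and -1.14 for mei2 between cul4Δ and ddb1Δ. The genes called were 1013 at 7 and 8 h, 232 in ddb1Δ against tor2-ts6, and 364 between cul4Δ and ddb1Δ. With no low-count filter, pat1 in ddb1Δ was at -1.33 and passed.

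With DESeq2, mei3 at 7 and 8 h was at 1.09 and pat1 at 0.45, both past the threshold. The interaction of mei3 had an adjusted p of 0.0431, and pir1Δ over the course was at 0.00016 for mei2. In h90 cells DESeq2 called ste11 (-0.87) and mei2 (-1.14) in ubi4Δ, ste11 (-1.13) and pat1 (-1.35) in ddb1Δ. It also called ste11 (-0.77), mei2 (-1.20) and pat1 (-0.68) between cul4Δ and ddb1Δ, and gave -0.0423 for mei3 on Pir1 loss. Its counts of genes called were 1104 at 7 and 8 h, 2061 for the interaction, 95 and 79 for Pir1 loss in vegetative and in tor2-ts6 cells, 384 in ddb1Δ and 513 between cul4Δ and ddb1Δ. With no read minimum, 439 genes passed the size rule for GFP-Pir1-SD, 177 for GFP-Pir1-SA, 717 for EMM against YEA in pir1Δ and 244 for pir1Δ against wild type in EMM.

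Leaving out each library or strain in turn, starved against vegetative cells gave 1.32 to 2.83 for ste11 and 1214 to 2370 genes called. For 1 to 3 h against starved the ranges were -2.24 to -0.80 for ste11, -2.57 to -1.60 for mei3, -1.04 to -0.36 for pat1 and 199 to 699 genes. For 4 to 6 h they were -0.84 to -0.51 for ste11, -1.70 to -0.78 for mei2, -1.06 to -0.23 for mei3, -0.61 to -0.42 for pat1 and 713 to 2564 genes. For 7 and 8 h they were 0.81 to 1.31 for mei3, 0.26 to 0.64 for pat1 and 0 to 1403 genes. Over the course red1Δ ranged from 0.39 to 0.74 for ste11, 0.38 to 0.67 for mei2, 0.80 to 1.12 for mei3 and 0.19 to 0.34 for pat1. There pir1Δ ranged from -0.44 to 0.27 for ste11, -0.47 to 0.0861 for mei2, -0.90 to 0.10 for mei3 and -0.27 to 0.0407 for pat1. By phase red1Δ ranged from -0.66 to 0.62 for ste11 in vegetative and starved cells, -0.58 to 0.16 for mei2 at 1 to 3 h. It ranged from -0.10 to 0.68 for mei3 at 4 to 6 h, and -0.17 to 0.21 for ste11 and -0.32 to 0.17 for pat1 at 7 and 8 h. By phase pir1Δ ranged from -1.81 to 0.46 for ste11, -0.53 to 0.86 for mei2 and -0.98 to 0.76 for mei3 in vegetative and starved cells. Later it ranged from -0.57 to 0.17 for ste11 at 1 to 3 h, -0.0761 to 0.49 for mei2 and -0.53 to 0.22 for mei3 at 4 to 6 h, and -0.15 to 0.34 for pat1 at 7 and 8 h. The adjusted p of the interaction ranged from 0.0144 to 0.259 for ste11, 0.0119 to 0.0941 for mei2 and 0.0493 to 0.305 for mei3, with 421 to 2171 genes.

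Likewise, Pir1 loss in vegetative cells ranged from -0.0678 to 0.21 for ste11, -0.16 to 0.24 for mei2 and -0.0978 to 0.0453 for pat1, with 10 to 52 genes called. In tor2-ts6 cells it ranged from -0.23 to 0.10 for ste11, -0.38 to 0.00316 for mei2, -0.45 to 0.26 for mei3 and -0.0777 to 0.27 for pat1, with 0 to 38 genes. Against tor2-ts6, ubi4Δ ranged from -1.06 to -0.50 for ste11, -1.33 to -0.78 for mei2, -2.86 to -1.85 for mei3 and -1.98 to -1.80 for pat1, with 16 to 2111 genes. The cul4Δ libraries ranged from -2.01 to -1.83 for ste11 and -1.29 to -0.0596 for mei3, with 66 to 2279 genes. The ddb1Δ strains ranged from -1.41 to -0.96 for ste11, -2.09 to -1.48 for mei2 and -1.71 to -1.15 for pat1, with 0 to 801 genes. Between cul4Δ and ubi4Δ the ranges were -1.34 to -0.78 for ste11, 0.69 to 1.92 for mei3, -0.43 to 0.0658 for pat1 and 844 to 3495 genes. Between cul4Δ and ddb1Δ they were -1.53 to -0.94 for mei2, -0.17 to 1.06 for mei3, -0.99 to -0.44 for pat1 and 0 to 1139 genes.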
